A study of Mus musculus with 12 samples.

Results

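The genes described here build, cross-link and degrade the extracellular matrix or mark the stromal cells that make it: fibroblasts, stellate cells and pericytes. They were listed by function, with earlier results of these data known, and the collagen VI genes were left out. Of 36 listed genes, 34 had a probe set that named them alone, and each was read from its probe set with the highest mean over the 12 arrays. Fibrillin-1 (Fbn1) and the lysyl oxidase homologue Loxl2 were not analysed here. The lysyl oxidase gene Lox peaked at 4.40 and so missed the filter, which asked for a log2 value above 5 on 3 or more arrays. This left 33 matrix and stromal genes among the 15237 tested, out of 18193 genes read by a probe set of a single gene. Of these 33, 32 were above the filter level on all 12 arrays, while lumican (Lum) exceeded it on 3: KO high-fat array 1 and WT normal arrays 1 and 3.

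RNA of C57BL6 mice was hybridised to Affymetrix arrays, 12 in number and 3 to a group. The 4 groups were Sgpp2-/- mice (KO) on a high-fat diet, wild-type mice (WT) on a high-fat diet, KO mice on a normal diet and WT mice on a normal diet. Sgpp2 encodes an endoplasmic reticulum phosphatase that dephosphorylates the signalling lipid sphingosine-1-phosphate, and the title of the series names pancreatic islets, although no sample label names a tissue. Age, sex, length of the diet, the design of the allele and the cells in which it is inactive were not stated in the labels, nor whether each array came from a separate animal. The p-values therefore rest on the spread between arrays, which may be technical.

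A pancreatic islet is wrapped and penetrated by a thin matrix. Endothelial cells and pericytes deposit the vascular basement membrane, a sheet of collagen IV and laminin networks bridged by nidogens, on which the endocrine cells rest. Fibroblasts and stellate cells add fibrillar collagens, small proteoglycans and adhesive glycoproteins, which are cross-linked by lysyl oxidases and turned over by matrix metalloproteinases under the control of tissue inhibitors of metalloproteinases.

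Islet hormone genes were bright on every array, with mean log2 values of 14.57 for Ins2 and 14.40 for Gcg, and so were acinar genes of the exocrine pancreas, with 13.97 for Cpa1. The defining endothelial markers Pecam1 and Cdh5 averaged 7.10 and 6.64, the fibroblast markers Thy1 and Vim 7.99 and 11.92, and the pericyte markers Cspg4 and Notch3 6.79 and 8.86, while the fat cell markers Adipoq and Cidec averaged 3.53 and 4.54, under the filter level. Of the mesothelial markers Msln averaged 9.48 and Upk3b 4.79, and of the red cell markers Alas2 averaged 5.39 and Hba-a1 4.14. Sgpp2 itself fell to 72.7% of the WT signal in KO, with a log2 difference of −0.46 averaged over diets (SE 0.05, limma adjusted p = 0.00327), although where its probe set lies relative to the deletion was not stated in the labels. On every array at least 75.9% of probe sets exceeded 5, and arrays of 1 group correlated with r of 0.994 to 0.996. With 3 arrays a group, precision was limited: a log2 difference between groups had a median standard error (SE) of 0.12.

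Promoter sequences are shown for the collagen IV pair, whose genes are transcribed away from each other, and for Nid1, Mmp14 and Timp2. Of the 36 genes, 21 had a promoter in the RefSeq table (GRCm38.p6), which gives 250 bases before and 50 after each start. Pdgfrb, Nid2 and Thbs1, described below, were not among the 21. Capitals mark matches, on either strand, to the CCAAT box (letters CCAAT), the GC box bound by Sp1 proteins (letters GGGCGG), the TATA box (letters TATAAA) and the AP-1 motif (letters TGANTCA). Each sequence runs 5′ to 3′ on the strand of its gene. The windows are chr8:11312777-11313076 on the minus strand for Col4a1, chr8:11312555-11312854 on the plus strand for Col4a2, chr13:13437352-13437651 on the plus strand for Nid1, chr14:54431348-54431647 on the plus strand for Mmp14 and chr11:118355362-118355661 on the minus strand for Timp2.
Col4a1: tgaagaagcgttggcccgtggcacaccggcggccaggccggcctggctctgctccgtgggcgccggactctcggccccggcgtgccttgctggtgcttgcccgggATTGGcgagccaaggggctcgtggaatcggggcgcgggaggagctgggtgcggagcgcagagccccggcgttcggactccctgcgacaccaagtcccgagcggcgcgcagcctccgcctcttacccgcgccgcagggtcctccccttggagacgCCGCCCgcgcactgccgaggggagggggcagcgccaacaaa
Col4a2: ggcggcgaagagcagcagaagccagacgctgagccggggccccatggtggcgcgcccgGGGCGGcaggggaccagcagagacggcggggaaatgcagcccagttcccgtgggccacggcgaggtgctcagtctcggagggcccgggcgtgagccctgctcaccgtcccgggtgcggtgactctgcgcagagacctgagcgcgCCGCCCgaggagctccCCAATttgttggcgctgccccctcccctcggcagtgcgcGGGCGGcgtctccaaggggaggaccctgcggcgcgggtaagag
Nid1: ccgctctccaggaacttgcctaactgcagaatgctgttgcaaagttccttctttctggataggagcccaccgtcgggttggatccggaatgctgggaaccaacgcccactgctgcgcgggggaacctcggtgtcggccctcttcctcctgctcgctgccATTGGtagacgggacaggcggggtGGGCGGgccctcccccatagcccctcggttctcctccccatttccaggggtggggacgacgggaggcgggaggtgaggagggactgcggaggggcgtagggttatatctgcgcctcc
Mmp14: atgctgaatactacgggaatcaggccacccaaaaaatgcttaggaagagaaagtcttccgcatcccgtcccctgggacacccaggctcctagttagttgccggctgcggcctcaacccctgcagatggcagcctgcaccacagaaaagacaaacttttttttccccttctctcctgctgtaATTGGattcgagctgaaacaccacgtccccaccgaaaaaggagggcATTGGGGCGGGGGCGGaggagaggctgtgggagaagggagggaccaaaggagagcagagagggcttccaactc
Timp2: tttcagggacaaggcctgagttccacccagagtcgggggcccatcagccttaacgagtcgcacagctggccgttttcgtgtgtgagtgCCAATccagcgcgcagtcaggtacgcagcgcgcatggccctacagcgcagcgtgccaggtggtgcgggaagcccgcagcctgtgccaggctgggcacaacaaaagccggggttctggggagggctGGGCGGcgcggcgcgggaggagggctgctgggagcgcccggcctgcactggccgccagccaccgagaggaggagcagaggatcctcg
The windows of Col4a1 and Col4a2 share 78 bases, read on opposite strands. All 5 windows hold the CCAAT box and the GC box, and none holds the TATA box or the AP-1 motif. In Mmp14 a CCAAT box and a GC box overlap by 1 base. Among all 32851 promoters of the table, 37.4% held the CCAAT box, 35.7% the GC box, 13.6% the TATA box and 7.81% the AP-1 motif. Among the 23 promoters of the 21 genes, 11, 14, 2 and 0 held them in that order. These matches describe letters in a window and were not tested for function.

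Averages over the 12 arrays lay between 4.78 for Lum and 12.50 for Sparc on the log2 scale. Signals of different probe sets depend on their probes and were not ranked against each other. The matrix and stromal genes varied more between arrays of 1 group than most genes: their median within-group SD was 0.25, against 0.15 over all tested genes. Decorin (Dcn), a small proteoglycan that binds collagen fibrils, had a within-group SD of 0.53, above that of 98.7% of genes. Col1a1, the α1 chain of collagen I, had 0.50. The collagen IV chains Col4a1 and Col4a2, at 0.10 and 0.11, varied least among the 33.

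Much of that spread ran across the genes together on single arrays. Averaged over the 33 genes, the deviation from each gene's mean over the 12 arrays was 0.16, −0.09 and −0.15 on the KO high-fat arrays and 0.03, −0.11 and −0.16 on the WT high-fat arrays. On the normal diet it was 0.05, −0.10 and 0.03 on the KO arrays and 0.19, −0.14 and 0.29 on the WT arrays. WT normal arrays 1 and 3 stood above all others and WT normal array 2 among the lowest. Within that group array 3 read highest for 21 of the 33 genes and array 2 lowest for 24, where 30.6% and 38.6% of all genes did so. Array 3 held the highest value of all 12 for 12 of the 33 genes, against 9.64% of all genes, and array 1 for 8, against 16.1%. KO high-fat array 1 was the highest of its group for 26, against 34.3% of all genes, and array 3 the lowest for 20, against 45.5%.

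**Figure D1:**
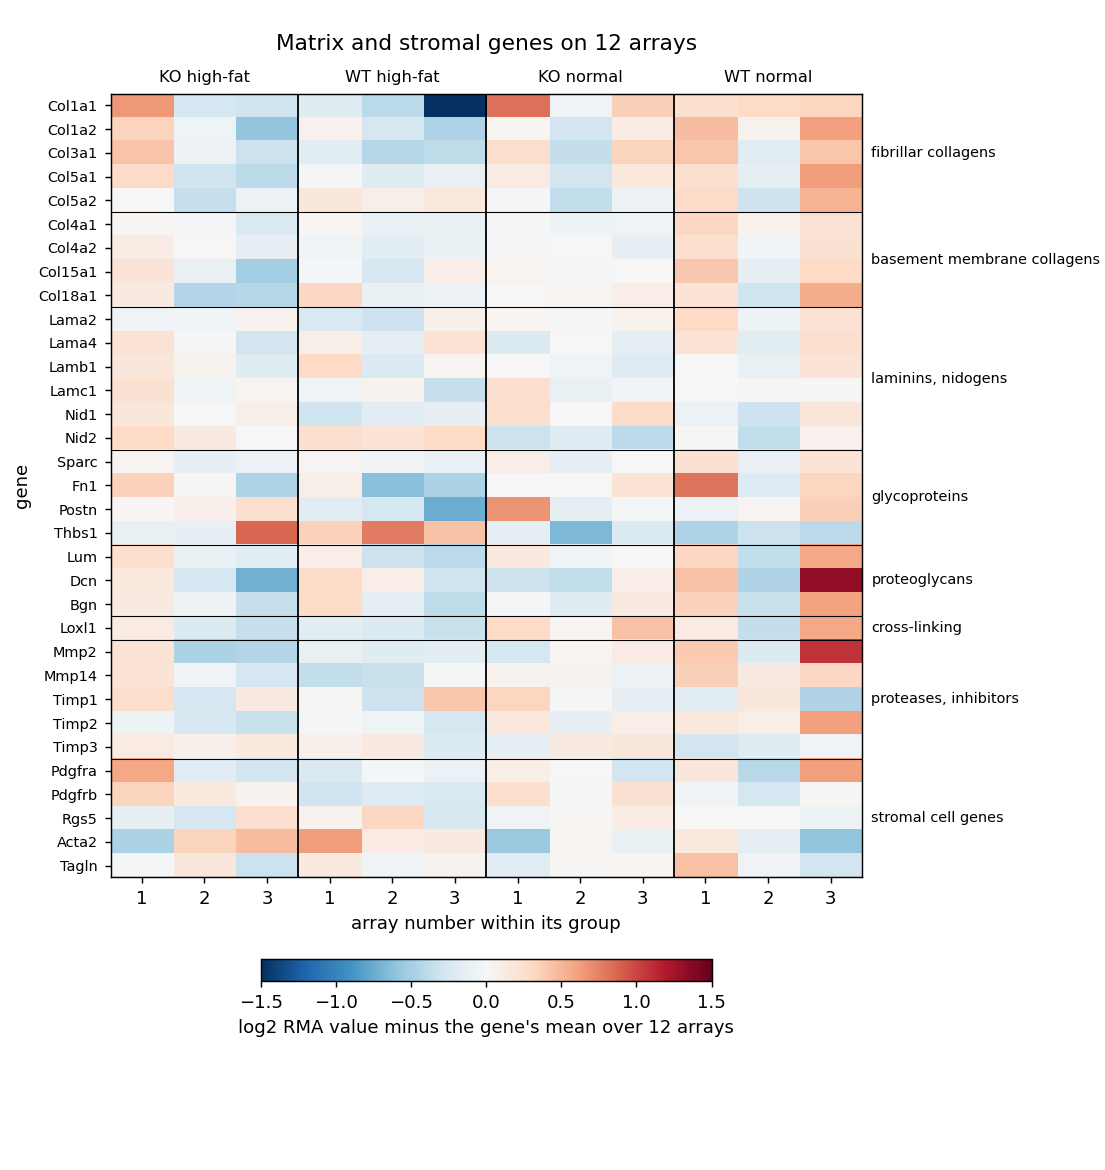
Each row is 1 of the 33 tested matrix and stromal genes, grouped by role, and each column 1 of the 12 arrays; colour gives the log2 RMA value minus the mean of that gene over the 12 arrays. Many rows are high (red) on WT normal arrays 1 and 3 and KO high-fat array 1, while WT normal array 2 is lower in most rows.

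Dcn showed this most plainly. It read 9.16, 8.74 and 8.29 on the KO high-fat arrays, 9.28, 9.11 and 8.71 on the WT high-fat arrays, 8.70, 8.63 and 9.10 on the KO normal arrays and 9.45, 8.56 and 10.33 on the WT normal arrays. Both the widest range and the highest value of Dcn lay in the WT normal group. Biglycan (Bgn), its relative, read 10.29, 9.62 and 10.55 on the WT normal arrays, in the same order, and Lum 5.09, 4.41 and 5.36. Mmp2, a gelatinase, read 6.57, 5.97 and 7.26 there. The markers of Schwann cells, the glia of peripheral nerves, moved with these arrays: over 6 tested genes their mean deviation was 0.83 on WT normal array 3 and between −0.35 and 0.24 on the other 11 arrays. The part of nerve-associated cells in the values of that array was not tested.

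KO was compared with WT to ask whether loss of Sgpp2 went with a different matrix and stromal profile. Averaged over diets, Pdgfrb, the receptor for PDGF-B that marks pericytes, rose 1.26-fold in KO (log2 difference 0.34, SE 0.08, 6 arrays per genotype, limma adjusted p = 0.0299), and it was the 1 gene of the 33 to pass. Over all genes 6.32% changed in that comparison, with 3.3% of all genes higher, and 1 of 33 lies near or below these shares. Within a diet 0 of 33 passed, against 0.0263% of all genes on the high-fat diet and 0.84% on the normal diet. Of the 33, 12 had a higher and 21 a lower mean in KO, with a median difference of −0.07, against −0.04 over all genes, of which 59.5% were lower. The median lay between −0.11 and −0.01 when any 1 of the 12 arrays was left out, with the extremes given by WT normal array 2 and WT normal array 1.

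Pdgfrb read 10.26, 10.08 and 9.99 on the KO high-fat arrays and 9.63, 9.74 and 9.70 on the WT high-fat arrays. Under the normal diet it read 10.18, 9.91 and 10.16 in KO, against 9.89, 9.66 and 9.95 in WT. The groups were apart on the high-fat diet, and on the normal diet KO array 2 read below WT array 3. The difference was 0.42 within the high-fat diet (adjusted p = 0.158) and 0.25 within the normal diet (adjusted p = 0.205). A second probe set of Pdgfrb differed by −0.11 (unadjusted p = 0.318), and the mean of both by 0.12 (adjusted p = 0.345).

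The call of Pdgfrb was close to the threshold. KO arrays with the same number on both diets shared part of their deviations, and with these pairs as a random block the adjusted p was 0.0577. With 1 KO array left out, it was 0.0508 for high-fat array 1, 0.0511 for high-fat array 2, 0.0566 for normal array 1 and 0.0787 for normal array 3, and the call held at 0.0429 for high-fat array 3 and 0.0306 for normal array 2. With 1 WT array left out, the call held at 0.0244 for high-fat array 2 and 0.0491 for normal array 3, and the adjusted p was 0.0666 for high-fat array 1, 0.0658 for high-fat array 3, 0.0686 for normal array 1 and 0.0506 for normal array 2, the last with Col5a2 passing in its place (log2 difference −0.42, adjusted p = 0.0346). Of the other stromal cell genes, the difference between KO and WT was −0.02 for Rgs5, a regulator of G-protein signalling in pericytes, −0.10 for Acta2, smooth muscle actin, −0.09 for Tagln, transgelin, and −0.01 for Pdgfra, the fibroblast receptor for PDGF. In bulk RNA, a change in the number of cells of a type and a change in RNA per cell cannot be told apart.

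**Figure D2:**
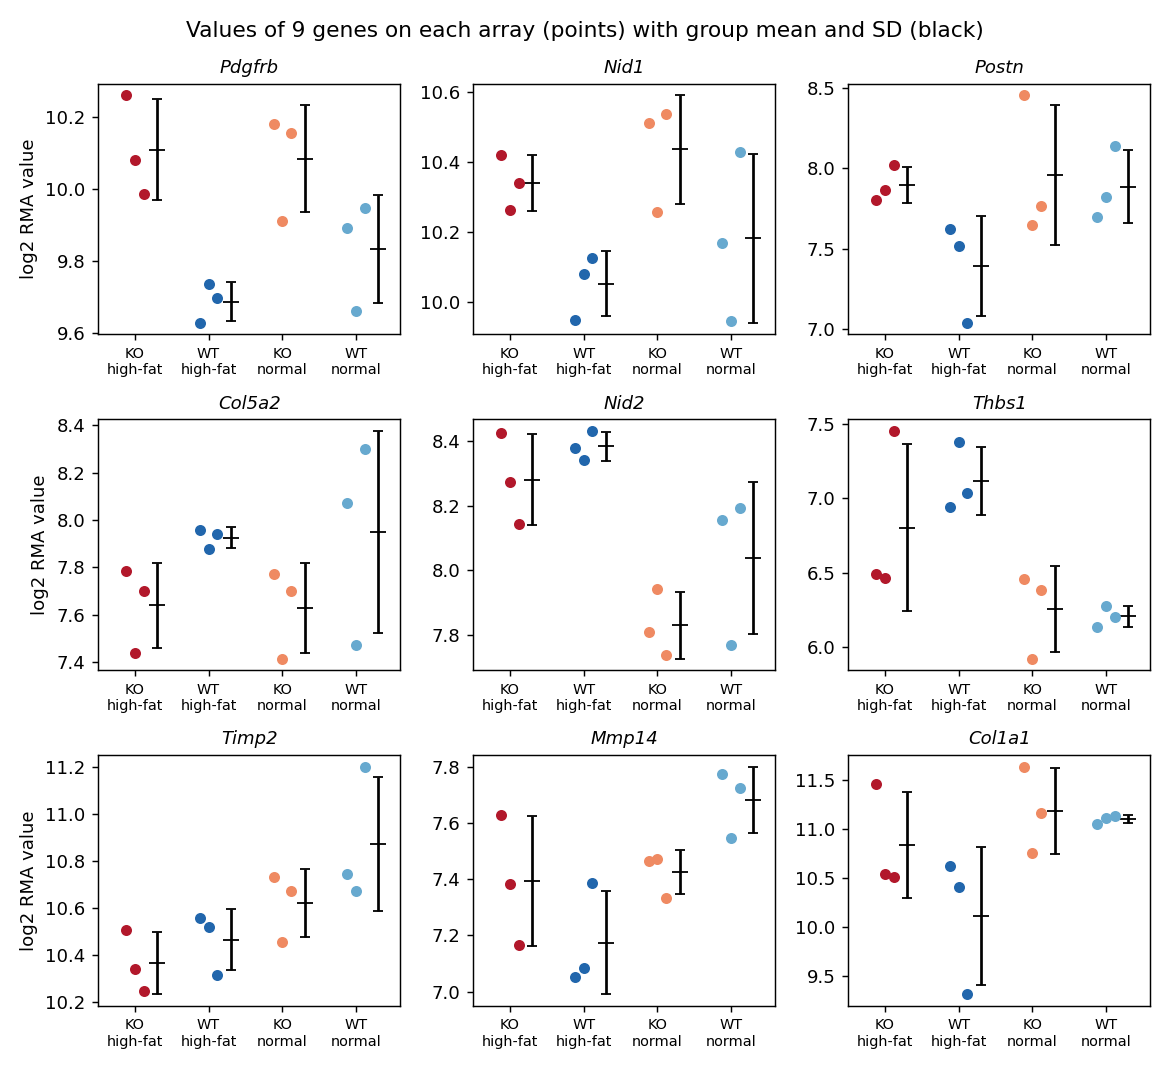
Log2 RMA values of 9 genes on each array (coloured points), with the mean and SD of each group of 3 arrays in black, for KO high-fat, WT high-fat, KO normal and WT normal from left to right. Pdgfrb lies between 9.91 and 10.26 on the KO arrays and between 9.63 and 9.95 on the WT arrays, and Thbs1 lies higher on all 6 high-fat arrays (6.47 to 7.46) than on all 6 normal diet arrays (5.92 to 6.46).

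In the basement membrane group, nidogen-1 (Nid1), which bridges laminin and collagen IV, came next. Its values were 10.42, 10.26 and 10.34 on the KO high-fat arrays and 9.95, 10.08 and 10.13 on the WT high-fat arrays. In the normal diet groups they were 10.51, 10.26 and 10.54 in KO and 10.17, 9.95 and 10.43 in WT. Again the high-fat groups were apart and the normal diet groups overlapped. The average difference was 0.27 (SE 0.09, 1.21-fold, adjusted p = 0.0776). Its other probe sets differed by −0.23 (unadjusted p = 0.015) and 0.03, so that the direction for the gene was not the same in all of them. Nidogen-2 (Nid2) differed by −0.16 and the laminin chains Lama2, Lama4, Lamb1 and Lamc1 by −0.15 to 0.10, none past the threshold.

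The 4 basement membrane collagens all had lower means in KO averaged over diets, between −0.20 for Col18a1, the source of endostatin, and −0.04 for Col4a2, and 0 of 4 passed. Col4a1 read 12.45, 12.40 and 12.20 on the KO high-fat arrays and 12.45, 12.32 and 12.31 on the WT high-fat arrays. On the normal diet it read 12.40, 12.35 and 12.36 in KO and 12.73, 12.48 and 12.63 in WT. The normal diet groups did not overlap, with a difference of −0.25 (SE 0.09, adjusted p = 0.161), and the high-fat groups lay on top of each other. Col4a2 read 11.62, 11.64 and 11.51 on the KO normal arrays and 11.88, 11.58 and 11.86 on the WT normal arrays.

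Among fibrillar collagens, Col5a2, which helps to set fibril width, read 7.78, 7.44 and 7.70 on the KO high-fat arrays and 7.96, 7.87 and 7.94 on the WT high-fat arrays. It read 7.77, 7.41 and 7.70 on the KO normal arrays and 8.07, 7.47 and 8.30 on the WT normal arrays. KO was lower throughout on the high-fat diet and overlapped WT on the normal diet. The average difference was −0.30 (SE 0.13, adjusted p = 0.155), whereas a second probe set differed by 0.30. Col1a1 differed by 0.41 (SE 0.25, adjusted p = 0.293), Col1a2 by −0.16, Col3a1 by 0.09 and Col5a1 by −0.13. Col5a2, Col3a1, Fn1, Lamc1 and Rgs5 lie on chromosome 1 with Sgpp2. The nearest of them was Fn1 (fibronectin), 71 protein-coding genes away, which differed by 0.03, and for genes near Sgpp2 its loss and a chromosome segment carried along with the allele cannot be told apart.

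Periostin (Postn), a matricellular protein of fibroblasts, read 7.80, 7.86 and 8.02 on the KO high-fat arrays and 7.62, 7.51 and 7.04 on the WT high-fat arrays, with no overlap. It read 8.46, 7.65 and 7.77 on the KO normal arrays and 7.70, 7.82 and 8.14 on the WT normal arrays, where the groups were mixed. In the high-fat groups KO and WT differed by 0.50 (SE 0.21, adjusted p = 0.354). Timp3, a matrix-bound inhibitor of metalloproteinases, read 12.12, 12.08 and 12.14 on the KO high-fat arrays and 12.07, 12.13 and 11.79 on the WT high-fat arrays. In the normal diet groups it read 11.85, 12.13 and 12.16 in KO and 11.70, 11.82 and 11.94 in WT. The genotypes overlapped on both diets, and the average difference was 0.17 (SE 0.08, adjusted p = 0.177).

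At an unadjusted p under 0.05, limma counted 2 of the 33 genes on the normal diet, Pdgfrb higher and Col4a1 lower, where 22.1% of all genes did so. On the high-fat diet, where 17 of the 33 had a lower mean (56.7% of all genes did) and 10 when KO high-fat array 3 was left out, it counted 3, Pdgfrb, Nid1 and Postn, all higher, against 13.4%. Averaged over diets it counted 3, Pdgfrb and Nid1 higher and Col5a2 lower, against 28.6%. Each share lies below that of all genes. Leaving out WT normal array 2 gave 13 on the normal diet and 9 for the average, and leaving out KO high-fat array 1 gave 5 for the average. The normal diet count was also 4 with array 3 of either high-fat group left out, and 1 with KO normal array 3 or WT normal array 1 left out. The shares of all genes in these refits were not counted, so the shares above, from all arrays, are no measure for them. Values of KO and WT did not overlap for 2 genes on the normal diet, Col4a1 and Mmp14, both lower, as for 34.3% of all genes. On the high-fat diet they did not overlap for 4, Pdgfrb, Nid1 and Postn higher and Col5a2 lower, as for 14.8%.

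**Figure D3:**
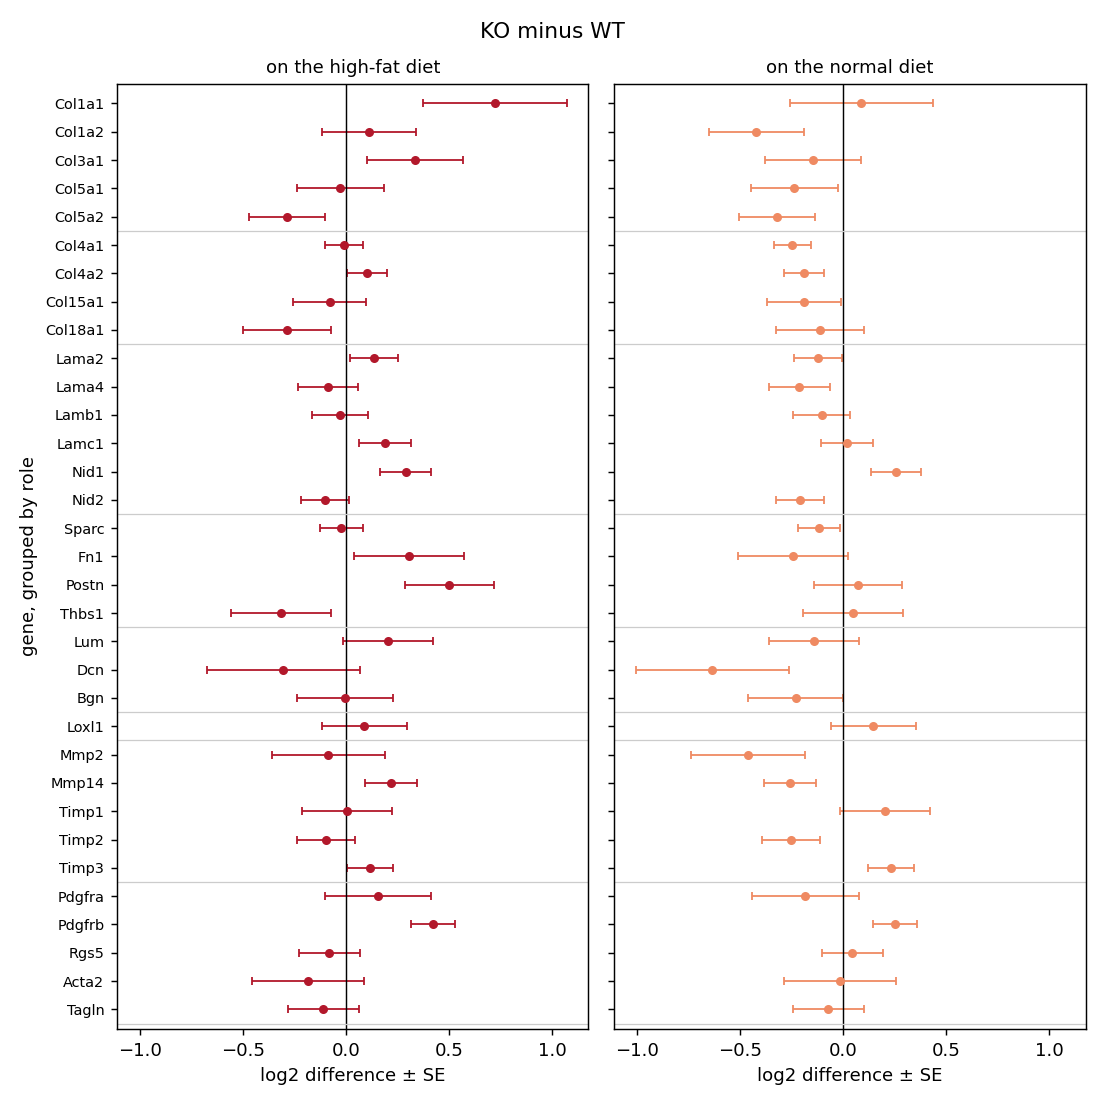
KO minus WT log2 difference of each of the 33 genes, with its SE from limma, on the high-fat diet (left) and on the normal diet (right), grouped by role. On the high-fat diet 16 genes lie above 0 and 17 below; on the normal diet 10 lie above and 23 below (59.8% of all genes were lower), with Dcn at −0.63.

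The diet was compared within each genotype. In WT, most of the matrix genes had lower means on the high-fat diet: 25 of 33 were lower, with a median difference of −0.25, against −0.02 over all genes, of which 55.4% were lower. All 5 fibrillar collagens, all 4 basement membrane collagens and all 3 small proteoglycans were on the lower side, whereas the 5 stromal cell genes were divided, 3 higher and 2 lower, with a median of 0.02. In WT the proteoglycan gene Lum exceeded the filter level only on normal diet arrays. It was thus tested partly through the group where it read high, and its lower mean adds no support here. No gene of the 33 passed the limma test over all genes, which 0.0788% of all genes did. At an unadjusted p under 0.05 there were 12, a share of 36.4% against 11.1% of all genes. Of the 33, 2 were higher and 10 lower at that level, against 3.9% and 7.22% of all genes.

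That count depended on single arrays. With 1 WT high-fat array left out it was 7 for array 2 and 6 for array 3. With 1 WT normal array left out it was 7 for array 1, 18 for array 2 and 5 for array 3. The share of all genes in these refits was not counted, and the share given for the full fit does not apply to them. The median difference of the 33 genes was −0.12 when WT normal array 3, the array with the high Schwann markers, was left out, −0.20 for array 1 of that group and −0.35 for array 2. Other fibroblast and stellate cell markers, such as Thy1 and Vim, were lower on the high-fat diet for 9 of 11 tested genes in KO and 11 of 11 in WT, with medians of −0.22 and −0.30. Of all genes, 51.9% were lower in KO and 55.4% in WT. At an unadjusted p under 0.05, 0 of these markers differed in either direction in KO, against 7.7% of all genes. In WT 4 of them were lower at that level, against 7.22% of all genes. Their mean deviation was −0.20, −0.16 and −0.46 on the WT high-fat arrays and 0.05, −0.12 and 0.40 on the WT normal arrays.

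Collagen I accounted for the widest of these differences. Col1a1 read 11.46, 10.54 and 10.51 on the KO high-fat arrays and 10.62, 10.40 and 9.31 on the WT high-fat arrays. On the normal diet it read 11.63, 10.76 and 11.16 in KO and 11.05, 11.11 and 11.13 in WT. WT values on the high-fat diet all lay below the close cluster of WT normal values, while KO values of both diets overlapped. The WT difference was −0.98 (SE 0.35, 1.98-fold lower, adjusted p = 0.319), and −0.58 without WT high-fat array 3. Its second probe set differed by −0.76 (unadjusted p = 0.039).

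Col1a2, the α2 chain, read 9.89, 9.49 and 8.97 on the KO high-fat arrays, 9.62, 9.30 and 9.10 on the WT high-fat arrays, 9.58, 9.27 and 9.67 on the KO normal arrays and 10.02, 9.60 and 10.17 on the WT normal arrays. WT normal array 2 lay at 9.60, under the highest WT high-fat value, so that the diets overlapped narrowly. The WT difference was −0.59 (SE 0.23, adjusted p = 0.365), and its other probe sets differed by −0.66 and 0.20. Col3a1, of collagen III, averaged 9.97 ± 0.14 on the WT high-fat arrays and 10.52 ± 0.33 on the WT normal arrays (SD, n = 3 each). The groups were apart only narrowly, at 10.136 for the highest high-fat value and 10.141 for the lowest normal diet value. The limma adjusted p was 0.407.

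The collagen IV chains, whose promoter windows overlap, were close to each other in WT. Col4a1 had 12.45, 12.32 and 12.31 on the high-fat arrays, against 12.73, 12.48 and 12.63 on the normal arrays. For Col4a2 the values were 11.59, 11.47 and 11.53 on the high-fat arrays, against 11.88, 11.58 and 11.86 on the normal arrays. Col4a1 did not overlap between diets, and Col4a2 did narrowly, at WT normal array 2. The differences were −0.26 (SE 0.09, adjusted p = 0.319) and −0.25 (SE 0.10, adjusted p = 0.363) in WT and −0.02 and 0.04 in KO, where Col4a2 read 11.74, 11.63 and 11.51 on the high-fat arrays and 11.62, 11.64 and 11.51 on the normal arrays. Lama2, the laminin α2 chain, read 8.02, 8.03 and 8.13 on the KO high-fat arrays, 7.85, 7.77 and 8.16 on the WT high-fat arrays, 8.11, 8.06 and 8.13 on the KO normal arrays and 8.37, 8.0 and 8.29 on the WT normal arrays. It overlapped between diets in both genotypes, with a WT difference of −0.30 (SE 0.12, adjusted p = 0.373).

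Mmp14, the membrane-anchored metalloproteinase that activates pro-Mmp2, had the smallest p of the 33 in WT. It read 7.05, 7.08 and 7.39 on the WT high-fat arrays and 7.77, 7.55 and 7.72 on the WT normal arrays, with no overlap. In KO it read 7.63, 7.38 and 7.17 on the high-fat arrays and 7.46, 7.47 and 7.33 on the normal arrays, where the diets were mixed. The difference was −0.51 in WT (SE 0.13, 1.42-fold lower, adjusted p = 0.182) and −0.03 in KO (SE 0.13). Its further probe sets differed by −0.06 and −0.12 in WT. The test of the difference between genotypes, the interaction, gave 0.47 for Mmp14 (SE 0.18, unadjusted p = 0.0229, adjusted p = 0.939).

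Timp2, which inhibits metalloproteinases and takes part with Mmp14 in the activation of pro-Mmp2, had lower means on the high-fat diet in both genotypes. Its values were 10.51, 10.34 and 10.25 on the KO high-fat arrays and 10.73, 10.46 and 10.67 on the KO normal arrays. They were 10.56, 10.52 and 10.32 on the WT high-fat arrays and 10.74, 10.67 and 11.20 on the WT normal arrays. The diets did not overlap in WT and overlapped at 1 KO array. The differences were −0.26 in KO (SE 0.14) and −0.41 in WT (SE 0.14), and −0.33 averaged over genotypes (SE 0.10, adjusted p = 0.194). The 3 further probe sets of Timp2 above the filter level were lower on the high-fat diet as well, by −0.25, −0.22 and −0.44 on average (unadjusted p = 0.00852, 0.0379 and 0.000373).

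Timp3 had a brightest probe set that was nearly level with diet, at 0.12 on average (SE 0.08, adjusted p = 0.548). Its 3 further probe sets were higher on the high-fat diet by 0.26, 0.56 and 0.30 on average (unadjusted p = 0.0103, 0.00038 and 0.0027). Probe sets of Timp3 thus had 1 direction but different sizes, and these further sets were singled out after their values were seen. Timp1 differed by −0.01 in KO and 0.19 in WT.

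Thbs1 (thrombospondin-1), a matricellular protein that can activate latent TGF-β, lay higher on the high-fat diet. It read 6.49, 6.47 and 7.46 on the KO high-fat arrays and 6.46, 5.92 and 6.38 on the KO normal arrays. In WT it read 6.94, 7.38 and 7.03 on the high-fat arrays and 6.13, 6.27 and 6.20 on the normal arrays. All 6 high-fat values exceeded all 6 normal diet values, narrowly so between KO arrays. Such a separation, in either direction, was seen in 0.958% of all genes. The difference was 0.73 averaged over genotypes (SE 0.17, 1.66-fold, limma adjusted p = 0.127). It was 0.55 in KO (SE 0.24) and 0.91 in WT (SE 0.24, adjusted p = 0.207). A second probe set differed by 0.36 in WT (unadjusted p = 0.013) and 0.14 on average (unadjusted p = 0.148).

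Nid2 was higher on the high-fat diet as well. It read 8.43, 8.27 and 8.14 on the KO high-fat arrays and 7.81, 7.94 and 7.74 on the KO normal arrays. In WT it read 8.38, 8.34 and 8.43 on the high-fat arrays, against 8.15, 7.77 and 8.19 on the normal arrays. Within each genotype the diets did not overlap. The difference was 0.45 in KO (SE 0.12, adjusted p = 0.414), 0.35 in WT (SE 0.12, adjusted p = 0.295) and 0.40 averaged over genotypes (SE 0.08, 1.32-fold, adjusted p = 0.0946). A random block of the same-numbered KO arrays, which no label pairs, was added after their deviations were seen. With it the limma adjusted p of the Nid2 average was 0.0474, under the threshold, and that of Thbs1 0.0628.

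In KO the diet went with smaller differences. Of the 33 genes 22 were lower on the high-fat diet, with a median of −0.04, against −0.01 over all genes, of which 51.9% were lower, and with KO high-fat array 3 left out there were 13 lower, with a median of 0.05. None passed, as for 0% of all genes, and 2 had an unadjusted p under 0.05, Nid2 and Thbs1, both higher, against 7.7% of all genes. That count was 5 with KO high-fat array 1 left out, 1 with any of KO high-fat array 3, KO normal array 3, WT high-fat arrays 1 and 3 and WT normal array 1 left out, and 6 in the paired fit of the KO arrays with the replicate number as a block. For these refits the share of all genes was not counted, so 7.7% is no measure for them. Values of the diets did not overlap for Nid2 and Thbs1 in KO, a count of 2 against 13% of all genes. In WT they did not overlap for 8, Thbs1 and Nid2 higher and Mmp14, Timp2, Col1a1, Col4a1, Col3a1 and Postn lower, against 15.8% of all genes.

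Loxl1, a lysyl oxidase homologue of elastic fibres, read 5.87, 5.55 and 5.40 on the KO high-fat arrays and 6.06, 5.79 and 6.20 on the KO normal arrays, with a difference of −0.41 (SE 0.21, adjusted p = 0.692). It read 5.60, 5.55 and 5.41 on the WT high-fat arrays and 5.88, 5.40 and 6.33 on the WT normal arrays, where the diets were mixed. Col18a1 read 7.38, 6.81 and 6.82 on the KO high-fat arrays and 7.24, 7.29 and 7.35 on the KO normal arrays, against a WT high-fat range of 7.15 to 7.56 and a WT normal range of 6.95 to 7.81. Its groups overlapped in both genotypes. Fn1 differed by −0.10 in KO and −0.65 in WT (SE 0.27 in each) and Postn by −0.06 and −0.49 (SE 0.21 in each). Col15a1, a collagen of the outer basement membrane zone, differed by −0.14 in KO and −0.25 in WT. Sparc, a collagen-binding glycoprotein, differed by −0.05 in KO and −0.14 in WT, and Mmp2 by −0.20 and −0.58. Of the stromal cell genes, Acta2 differed by 0.32 in KO and 0.48 in WT (SE 0.27 in each) and Tagln by −0.02 and 0.02. Pdgfra differed by 0.11 in KO and −0.23 in WT, both within its SE of 0.26. No diet difference of any gene named in this paragraph passed the threshold in either genotype.

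Averaged over genotypes, 25 of 33 genes were lower on the high-fat diet, with a median of −0.14, against −0.01 over all genes, of which 55.2% were lower, and −0.08 with WT normal array 3 left out. None passed the threshold, which 0.197% of all genes did, and 6 had an unadjusted p under 0.05, against 13.6% of all genes: Nid2 and Thbs1 were higher and Timp2, Mmp14, Col1a1 and Loxl1 lower. Leaving out WT normal array 2 made that count 20, leaving out KO high-fat array 1 made it 14 and leaving out KO normal array 2 made it 10. The share of all genes was not counted in these refits, so 13.6% is no measure for them. The diet difference had 1 sign in both genotypes for 24 of 33 genes, 5 higher and 19 lower. That share was 72.7%, against 59.9% of all genes. These comparisons share no array, but many of the genes moved together on single arrays, so their signs are not independent. With KO high-fat array 3 left out, 13 of 33 were lower in KO. The interaction was positive for 25 of 33, against 53.8% of all genes, with a median of 0.17, against 0.02 over all genes. That median was 0.08 with KO high-fat array 1 left out, 0.10 for KO normal array 2, 0.05 for WT normal array 3 and 0.27 for WT normal array 2. None passed, as for 0% of all genes, and 1 had an unadjusted p under 0.05, Mmp14, against 4.97% of all genes. There were 6 with WT normal array 2 left out, 5 for KO high-fat array 3, 2 for WT high-fat array 3 or KO normal array 1, and 0 for KO high-fat array 1, KO normal array 3, WT high-fat array 1 or 2 or WT normal array 1. For these counts too the share of all genes in the refit was not counted. A difference between the genotypes in their response to diet was thus not shown for any gene of the 33. The WT diet comparison and the KO against WT comparison on the normal diet share the WT normal arrays.

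**Figure D4:**
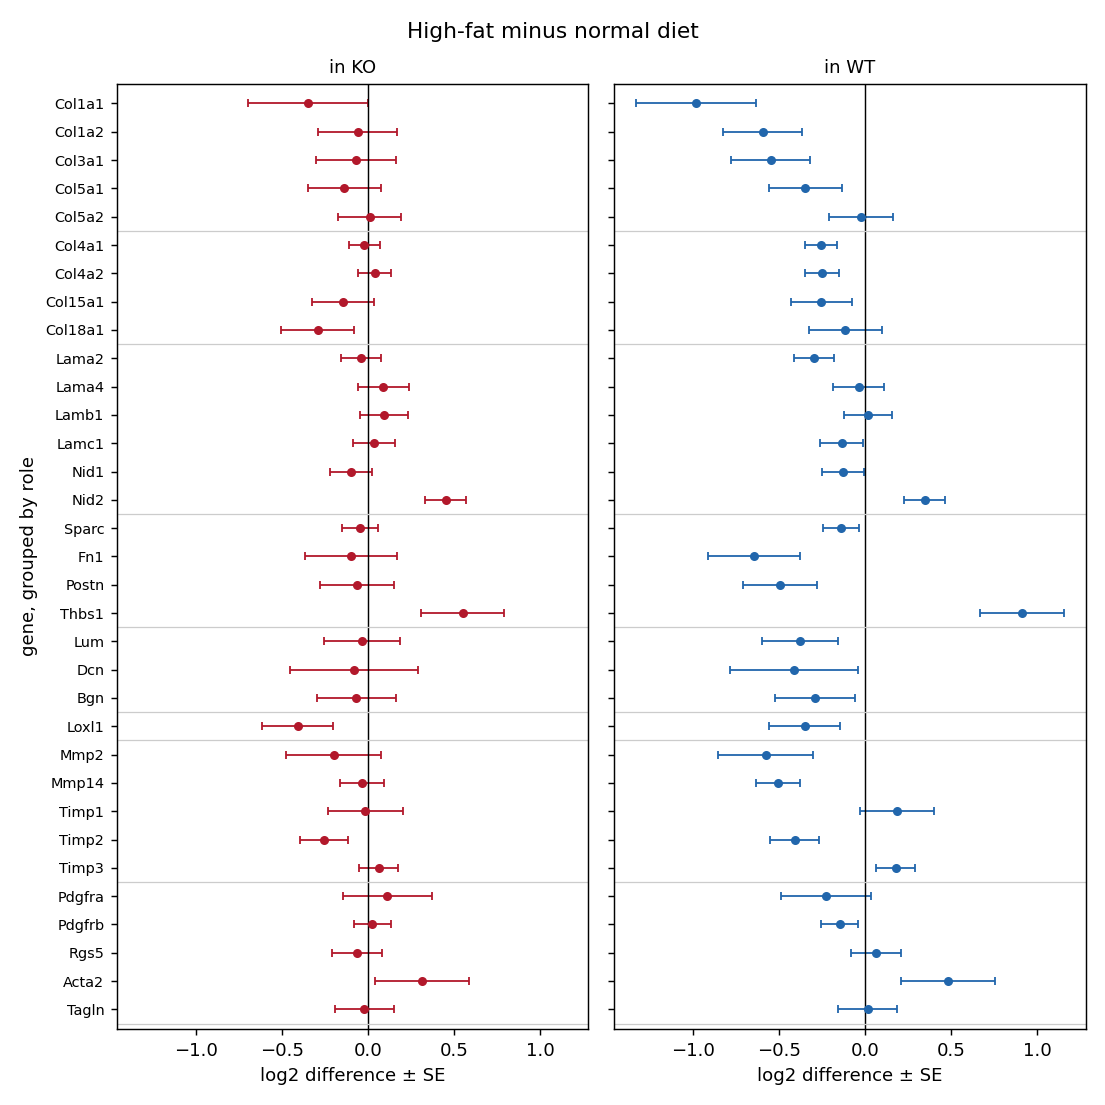
High-fat minus normal diet log2 difference of each of the 33 genes, with its SE from limma, in KO (left) and in WT (right), grouped by role. In WT 25 genes lie below 0, with Col1a1 at −0.98 and Mmp14 at −0.51, and Thbs1 and Nid2 lie above 0 in both genotypes.

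Further probe sets were a check on the choice of 1 set per gene. For 22 of the 33 genes there were 35 further sets above the filter level, and sets below it were not read. Of these, 24 had the sign of the chosen set for the diet in KO, 27 for the diet in WT and 29 for the diet averaged over genotypes. For KO against WT it was 18 on the high-fat diet, 17 on the normal diet and 21 for the average. Thus further probe sets mostly shared the sign for the diet in WT, whereas for genotype on 1 diet the signs were close to evenly divided.

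Related matrix genes that are not among the 33 gave the setting. Collagen VI was led by Col6a3, the α3 chain, which fell by 2.43 in KO averaged over diets (SE 0.20, adjusted p = 0.000568) and lies 102 protein-coding genes from Sgpp2. Col6a1 and Col6a2 differed by −0.11 and 0.01. Over all genes 6.32% changed in this comparison and 3.3% were higher in KO. Of 16 other collagens, 1 rose in KO, Col23a1, a transmembrane collagen, by 0.26 (adjusted p = 0.0418), and 0 fell. Of 23 further glycoproteins and elastic fibre genes, 1 rose, the matrix protein matrilin-2 (Matn2), by 1.15 (adjusted p = 0.00207), and 0 fell. Of 17 matrix receptors, the collagen receptor Ddr1 rose by 0.56 (adjusted p = 0.0034), and the integrin chains Itga2 and Itga7 fell by 0.41 (adjusted p = 0.032) and 0.31 (adjusted p = 0.045).

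Of 15 genes of the TGF-β pathway, the transducer Smad2 fell by 0.23 in KO (adjusted p = 0.0448), Smad7, an inhibitor, differed by 0.33 (adjusted p = 0.0638) and Skil, a repressor, by 0.31 (adjusted p = 0.0538). Of the PDGF ligands, Pdgfb, which signals through Pdgfrb, differed by −0.30 (adjusted p = 0.149), Pdgfd by 0.19 and Pdgfa by −0.01. None passed in limma among 16 genes of collagen processing, 15 further proteoglycans, 6 further laminin and netrin genes and 16 further proteases and inhibitors, of which 2, 2, 0 and 1 were lower in KO at an unadjusted p under 0.05 and 0 were higher, against 28.6% of all genes in either direction. For the diet, limma passed 0 genes of these 10 lists in KO, in WT or on average.

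The diet was read in the same lists. Of 23 glycoprotein and elastic fibre genes, 18 had lower means on the high-fat diet in KO and 19 in WT, with medians of −0.17 and −0.14. Of 16 other collagens, 12 had lower means in KO and 13 in WT, with medians of −0.16 and −0.21, where 51.9% of all genes were lower in KO and 55.4% in WT. In WT, Mfap2 and Mfap4, proteins of microfibrils, differed by −0.90 (adjusted p = 0.183) and −0.74 (adjusted p = 0.216), and Col14a1, a fibril-associated collagen, by −0.61 (adjusted p = 0.324). Of 16 collagen processing genes 7 had higher means in KO and 10 in WT, with medians of −0.02 and 0.05. In WT, the prolyl 4-hydroxylase subunits P4ha1 and P4ha2, which modify collagen in the endoplasmic reticulum, differed by 0.47 (adjusted p = 0.217) and 0.55 (adjusted p = 0.231), and the collagen chaperone Serpinh1 by 0.39 (adjusted p = 0.276). Tgfb2 differed by −0.47 (adjusted p = 0.248). At an unadjusted p under 0.05, 5 of 23 glycoproteins and 2 of 16 collagens were lower in WT, against 7.22% of all genes, and 3 of 16 processing genes were higher, against 3.9%, with 0 in the opposite direction in each list.

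Markers of other cell types were read on the same arrays. Endothelial markers were lower in KO averaged over diets for 11 of 12, against 59.5% of all genes, with a median of −0.22. Of the 12, 2 changed, against 6.32% of all genes, and both fell, Pecam1 by 0.50 (adjusted p = 0.0318) and Kdr by 0.23 (adjusted p = 0.0448). The mean deviation of the 12 markers was 0.02, −0.05 and −0.12 on the KO high-fat arrays and 0.21, 0.08 and 0.09 on the WT high-fat arrays. It was −0.16, −0.16 and −0.15 on the KO normal arrays and 0.16, −0.10 and 0.16 on the WT normal arrays. Macrophage markers were also lower in KO averaged over diets, for 7 of 9, with a median of −0.24. B-cell markers were lower for 3 of 3, with a median of −0.23, whereas T and NK cell markers were higher for 6 of 7, with a median of 0.11. Acinar markers were higher in KO on the normal diet for 10 of 10, with a median of 0.23, where 59.8% of all genes were lower. Their deviations were 0.21, 0.27 and 0.05 on the KO normal arrays and −0.20, −0.08 and 0.03 on the WT normal arrays. On the high-fat diet they were higher in KO for 8 of 10, with a median of 0.05, where 56.7% of all genes were lower. Other fibroblast and stellate markers were higher in KO averaged over diets for 10 of 11, with a median of 0.16, and 0 passed. Other pericyte and smooth muscle markers divided 5 to 5 in KO against WT averaged over diets, with a median near 0, beside the rise of Pdgfrb, and on the high-fat diet they were lower for 6 of 10 in KO and 9 of 10 in WT, with medians of −0.05 and −0.21. Schwann markers were lower on that diet for 5 of 6 in KO and 6 of 6 in WT, with medians of −0.36 and −0.35. Of all genes, 51.9% were lower on the high-fat diet in KO and 55.4% in WT. The part of these cell types in the matrix values was not tested.

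**Figure D5:**
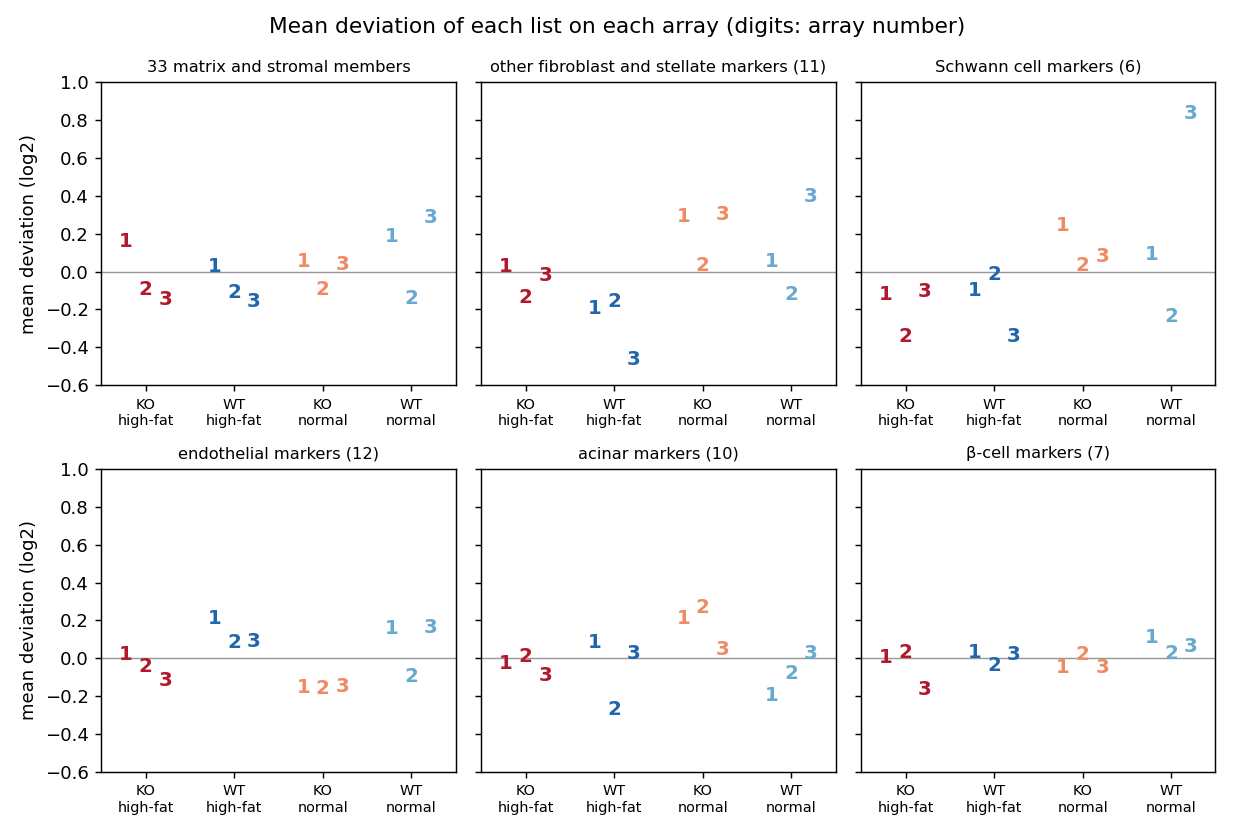
Mean log2 deviation of 6 gene lists on each array, each digit being the array number within its group, for KO high-fat, WT high-fat, KO normal and WT normal from left to right. The 33 matrix and stromal genes, the other fibroblast and stellate markers and the Schwann markers are highest on WT normal array 3 (0.29, 0.40 and 0.83), while the β-cell markers vary little.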

How the data were processed

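RNA was read on 12 Affymetrix Mouse Genome 430 2.0 arrays in 4 groups of 3. The log2 values deposited by the authors are RMA summaries, 1 per probe set and array, made with Partek 6.6 per the submitters' processing notes. RMA usually equalises the arrays at the level of probes, before the summary, which can hide a change common to most genes. The deposited probe set values were not fully equal, with array medians between 7.00 and 7.13. The options of RMA were not stated in the labels.

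Each gene was represented by its probe set with the highest mean over the 12 arrays. Genes above 5 on at least 3 arrays were tested: 15237 of 18193. A model with 1 mean for each group was fitted to the 12 arrays with limma 3.58.1 (R 4.3.3), leaving 11.08 degrees of freedom after moderation, with two-sided moderated tests and Benjamini-Hochberg adjustment over all genes tested (threshold 0.05). Adjusted p-values and SEs are from this fit unless an alternative is named beside them; p-values of further probe sets are from the same fit over all probe sets and are unadjusted. The limma fit was tried on simulated data for KO against WT on the normal diet, with genes that varied independently of each other. The members, roles, pathway lists and marker lists were chosen with earlier results of these data known. All members may be named; in each comparison those past the threshold come first, then those with the smallest p until each of 8 roles has up to 2, and the 5 with the smallest p are given on every array. Up to 4 genes are named of each of 10 pathway lists.

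Same-numbered KO arrays deviated together across diets, with r of 0.29, 0.38 and 0.14, each over 0.1, so the pairing rests on these values and not on a label. In the other comparisons r of same-numbered arrays lay between −0.51 and 0.10. Correlations as large in size thus occurred with a negative sign, and whether the KO arrays were paired was not tested. Alternatives were no filter, the mean of all probe sets, other scalings, replicate blocks and leaving out each array. Plots used matplotlib 3.10.9 under Python 3.11.15.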

Additional observations from a re-analysis of the deposited data

How the results depend on the processing

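The count of matrix and stromal genes past the threshold was 1 for KO against WT averaged over diets, the gene being Pdgfrb. It was 2 with each array centred on its median (Pdgfrb and Nid1, adjusted p = 0.0134 and 0.0433), 0 with the random replicate block of same-numbered arrays of each genotype and 0 with that of KO arrays only, and 0 to 1 when any 1 array was left out. For the diet averaged over genotypes the count was 0, but 2 with the random replicate block (Nid2 and Thbs1, adjusted p = 0.0312 and 0.0451) and 1 with that of KO arrays only, and 0 when any 1 array was left out. In the other 5 comparisons it was 0 throughout. Taking the mean of all probe sets turned Nid1 in KO against WT on the normal diet round, to −0.012 (adjusted p = 0.956), and called Lama4 (log2 difference −0.28, adjusted p = 0.0475) in place of Pdgfrb. Over all its alternatives the adjusted p of Pdgfrb lay between 0.0134 and 0.345. With the replicate number as a fixed replicate block (paired) it was 0.0468, and the blocks changed no other call of the 33 genes than those given. Counts over all genes moved more: for KO against WT, 128 on the normal diet became 69 with the mean of probe sets, 238 with median centring, 9 with the replicate block and 2 to 223 with 1 array left out. On the high-fat diet 4 became 8 with median centring, 2 with the replicate block and 0 to 272 with 1 array left out. For the average 963 became 524 with the replicate block, 279 and 352 with the random blocks and 255 to 2500 with 1 array left out. For the diet in WT 12 became 0 with the replicate block and 0 to 11 with 1 array left out, and for the diet average 30 became 0, 167 and 84 with the blocks and 0 to 30. The calls of the average divided into 503 rises and 460 falls, 606 and 245 after cyclic loess, 877 and 209 after median centring and 241 and 411 with the mean of probe sets. The causes were not tested. Signals near the filter level, such as those of Lum and Loxl1, limit what a difference can show.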
